A study of Homo sapiens with 4 samples.

Results

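BAX, FDXR, MDM2, RRM2B and CDKN1A are textbook transcriptional targets of the tumour suppressor p53, and their mRNAs were followed through RNA immunoprecipitation of EXOSC10, an exoribonuclease of the nuclear RNA exosome that degrades and trims RNA from its 3' end. The members were a list of 5 symbols, and all 5 were present among the 12838 gene symbols of the table, with the table entries of each symbol added up. The cells were LM2-4175, derived from breast carcinoma line MDA-MB-231 through lung metastases in mice, and all carried a doxycycline-inducible CerS4 construct under puromycin and hygromycin. The 4 groups were EXOSC10 antibody on cells given doxycycline at 5 µg/mL for 48 h, EXOSC10 antibody on untreated cells, control IgG on doxycycline-treated cells and control IgG on untreated cells. There was 1 library per group, so no ratio between libraries has a replicate check and none carries a p-value. No cells without the construct were in the design, so doxycycline itself and the induced enzyme cannot be told apart, and CERS4 had no entry analysed here.

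p53 is a transcription factor that is stabilised by DNA damage and other stress. CDKN1A encodes p21, which inhibits cyclin-dependent kinases, and BAX encodes a BCL2 family protein that permeabilises the outer mitochondrial membrane in apoptosis. MDM2 encodes the ubiquitin ligase that degrades p53 and closes a feedback loop. FDXR encodes ferredoxin reductase, which passes electrons from NADPH to the mitochondrial ferredoxins, and RRM2B encodes the p53-inducible small subunit of ribonucleotide reductase. In RNA immunoprecipitation the reads measure RNA recovered with an antibody, and a change in the amount of an mRNA cannot be told apart from a change in its binding.

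The stretches of 250 bases before annotated starts of MDM2, BAX and FDXR are shown because MDM2 holds a match to the p53 motif and because BAX and FDXR had the highest doxycycline ratios in the EXOSC10 libraries. They are RefSeq sequences of GRCh38.p14, written 5' to 3' on the gene's strand. The MDM2 stretch is chr12:68808767-68809016 on the plus strand and lies inside the gene, before its internal start. Capitals there mark the best match to the p53 consensus, a pair of adjoining half-sites of 20 bases together, with 2 mismatches. The BAX stretch is chr19:48954625-48954874 on the plus strand, with capitals for CACGTG. The FDXR stretch is chr17:74872995-74873244 on the minus strand, with capitals for GGGCGG.
MDM2 internal start: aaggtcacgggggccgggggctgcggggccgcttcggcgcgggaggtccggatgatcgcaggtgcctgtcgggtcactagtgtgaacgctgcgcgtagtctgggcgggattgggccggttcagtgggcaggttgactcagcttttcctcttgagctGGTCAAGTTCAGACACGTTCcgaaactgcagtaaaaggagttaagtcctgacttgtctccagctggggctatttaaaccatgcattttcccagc
BAX: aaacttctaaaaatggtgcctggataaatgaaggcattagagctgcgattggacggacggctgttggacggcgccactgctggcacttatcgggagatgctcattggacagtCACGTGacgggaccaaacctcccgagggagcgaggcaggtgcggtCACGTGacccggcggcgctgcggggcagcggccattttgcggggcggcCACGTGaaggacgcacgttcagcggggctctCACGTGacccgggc
FDXR: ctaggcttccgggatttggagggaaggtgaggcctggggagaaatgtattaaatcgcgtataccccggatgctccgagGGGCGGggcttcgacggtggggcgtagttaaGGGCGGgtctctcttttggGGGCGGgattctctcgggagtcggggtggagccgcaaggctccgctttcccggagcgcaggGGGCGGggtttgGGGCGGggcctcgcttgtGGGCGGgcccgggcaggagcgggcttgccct
Motifs were searched on both strands of all 35116 such stretches in the RefSeq table. A p53 match with at most 2 mismatches was found in 0.561% of them. Among the stretches searched for BAX, FDXR, MDM2 and CDKN1A, only those of the internal MDM2 starts held one. CACGTG, the E-box letters, occurred 4 times before BAX, and 5 of the 35116 stretches (0.0142%) held that many. GGGCGG or its complement CCGCCC, the GC box letters, occurred 6 times in the FDXR stretch shown. Before the other annotated start of FDXR they occurred 0 times. At least 1 copy lay in 42.6% of all stretches, and the share with 6 was not computed. The best p53 match had 3 mismatches before FDXR, 4 before BAX and 5 before CDKN1A. Sites outside these 250 bases, or with a gap between half-sites, were not searched for. A match of letters is a description of the sequence and no evidence of binding.

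The libraries differed in what they could measure. Estimated reads totalled 5511209 and 4233592 for EXOSC10 with and without doxycycline, and 7575125 and 3723291 for IgG with and without it. Between 56.3% and 83.8% of them lay on ribosomal RNA genes. The doxycycline EXOSC10 library had the most reads outside those genes, 2408177, against 1023362 to 1229744 in the other 3 libraries. Every entry of the table reached 10.0 reads in at least 1 library, and 30.5% of the 24015 entries did so in the doxycycline EXOSC10 library alone, against 2.16% to 7.53% for each other library. Of the 15 entries of the 5 genes, 8 reached 10 reads there alone. All 8 markers listed for a mesenchymal breast carcinoma line had entries, among them VIM with 4400 reads in the doxycycline EXOSC10 library and 2080 in the untreated one. Their summed scaled level was 590 and 678 CPM in the doxycycline and untreated EXOSC10 libraries, and 919 and 1360 CPM in the doxycycline and untreated IgG libraries. Of 6 luminal markers, ESR1 and EPCAM had no entry analysed here, but FOXA1 had 411 reads and GATA3 69 reads in the doxycycline EXOSC10 library, against 97 and 24 in the untreated one. CDKN2A, a gene reported as deleted in MDA-MB-231, had 330 and 103 reads in the same libraries. The luminal markers summed to 38.5 and 26.0 CPM in the doxycycline and untreated EXOSC10 libraries, and to 27.0 and 19.7 CPM in the doxycycline and untreated IgG libraries. Of 5 blood markers, LYZ alone had an entry, with at most 15 reads in a library. The part of these other markers in the results was not tested.

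The p53 target mRNAs had between 1.52 and 252 reads per gene and library. Together the 5 genes had 633 and 89.5 reads for EXOSC10 with and without doxycycline, and 83.8 and 33.7 reads for IgG with and without it. Per 1000000 reads outside ribosomal RNA genes, the sums were 263 and 87.4 in the doxycycline and untreated EXOSC10 libraries, and 68.2 and 32.0 in the doxycycline and untreated IgG libraries. Each gene had its most reads in the doxycycline EXOSC10 library and its fewest in the untreated IgG library. The summed reads of the 34 other p53 targets with entries had the same order. They were 4780 and 1870 for EXOSC10 and 1170 and 911 for IgG, with and without doxycycline. The order did not hold for each of these genes. PHLDA3 had 197 reads in the doxycycline EXOSC10 library and 214 in the doxycycline IgG library. TMM, a trimmed mean of log ratios between libraries, brings the bulk of genes near even. After this scaling the sums of the 34 targets were 347 and 357 CPM for EXOSC10 and 343 and 341 CPM for IgG. That evenness is therefore in part set by the scaling. GDF15 alone held 1440 of the 4780 reads in the doxycycline EXOSC10 library.

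**Figure D1:**
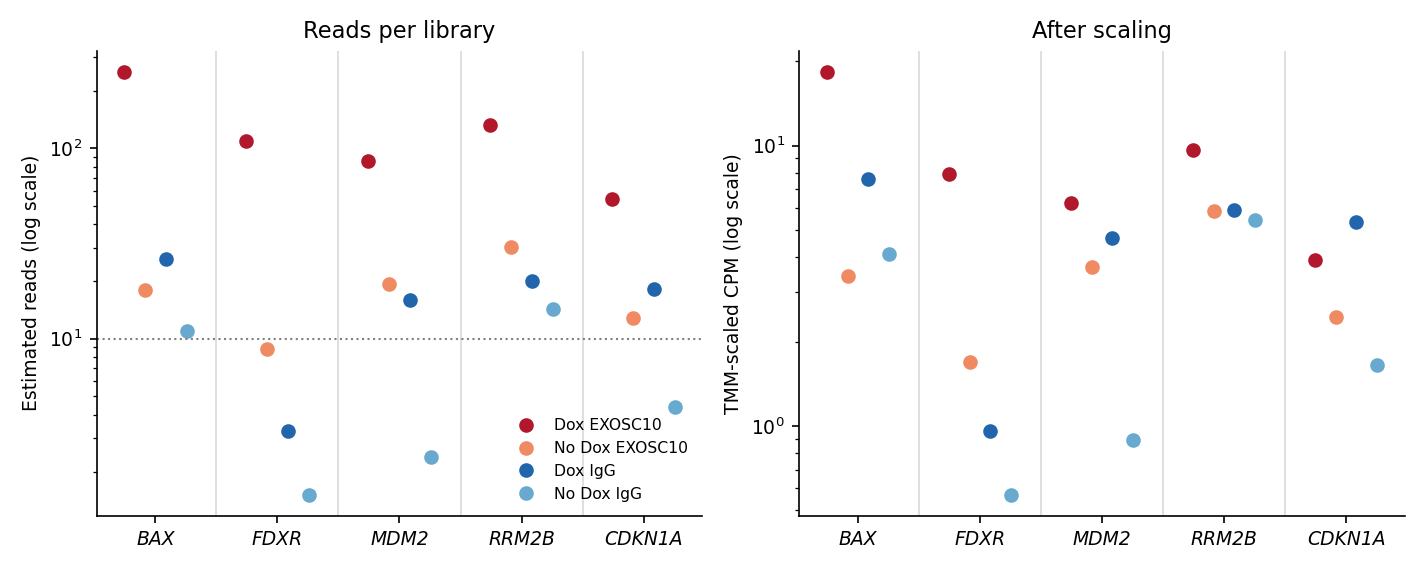
Estimated reads (left) and TMM-scaled CPM (right) of the 5 genes, each point 1 library, on log axes. The dotted line marks 10 reads. Every gene had its most reads in the doxycycline EXOSC10 library, and FDXR stayed below 10 reads in the other 3 libraries.

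BAX, on chromosome 19 from 48954875 to 48961798 (GRCh38), had 252 reads in the doxycycline EXOSC10 library and 18 in the untreated EXOSC10 library. In IgG it had 26.1 reads with doxycycline and 11 untreated. Scaled by TMM, its level was 18.3 CPM in the doxycycline EXOSC10 library, against 3.44 CPM in the untreated one, and it was 7.62 and 4.12 CPM in the doxycycline and untreated IgG libraries. The doxycycline EXOSC10 library thus stood apart from the other 3. The log2 ratio of doxycycline over untreated EXOSC10 RNA was 2.34 (95% interval for counting error 1.72 to 3.19), or 5.07-fold, higher than in 99.4% of the 6580 genes with at least 100 reads in the pair. Under 10 processing alternatives the BAX ratio lay between 1.68 and 3.36, past 2-fold in each.

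FDXR, on chromosome 17 from 74862497 to 74872994, had 109 reads in the doxycycline EXOSC10 library and 8.83 in the untreated EXOSC10 library. In IgG it had 3.29 and 1.52 reads with doxycycline and untreated. Its scaled level was 7.89 and 1.69 CPM in the doxycycline and untreated EXOSC10 libraries, against 0.963 and 0.570 CPM in the doxycycline and untreated IgG libraries. Its ratio of doxycycline over untreated EXOSC10 RNA was 2.10 (1.24 to 3.40), or 4.28-fold. FDXR lay near the minimum of 100 reads. With the entry of the most reads alone it missed the minimum, at a ratio of 1.75.

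MDM2, on chromosome 12 from 68808172 to 68850686, had 86.0 reads in the doxycycline EXOSC10 library and 19.3 in the untreated EXOSC10 library. In IgG it had 16.0 reads with doxycycline and 2.38 untreated. Its scaled level was 6.24 and 3.69 CPM in the doxycycline and untreated EXOSC10 libraries, against 4.67 and 0.891 CPM in the doxycycline and untreated IgG libraries. The untreated IgG library was thus the one that stood apart, from 2.38 reads. Within EXOSC10 RNA, doxycycline over untreated gave 0.73 (0.03 to 1.55), short of 2-fold. MDM2 overlaps a neighbouring gene at its 3' end that had no entry analysed here.

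RRM2B, on chromosome 8 from 102204501 to 102238961, had the most even scaled levels. They were 9.63 and 5.83 CPM in the doxycycline and untreated EXOSC10 libraries, and 5.90 and 5.41 CPM in the doxycycline and untreated IgG libraries, from 133, 30.5, 20.2 and 14.4 reads in that order. Within EXOSC10 RNA, doxycycline over untreated gave 0.70 (0.15 to 1.34), also short of 2-fold.

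CDKN1A, on chromosome 6 from 36676463 to 36687332, had 54.0 reads in the doxycycline EXOSC10 library and 12.8 in the untreated EXOSC10 library. In IgG it had 18.3 reads with doxycycline and 4.40 untreated. It missed the minimum of 100 reads in every pair. Within EXOSC10 RNA, doxycycline over untreated gave 0.64, with an interval from -0.22 to 1.68 that includes 0. CDKN1A was the 1 member whose highest scaled level lay outside the doxycycline EXOSC10 library, at 3.92 CPM there against 5.35 CPM in the doxycycline IgG library. Without scaling the order was the other way, at 9.80 CPM in the doxycycline EXOSC10 library against 2.42 CPM in the doxycycline IgG library.

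In EXOSC10 RNA, doxycycline over untreated, BAX and FDXR, 2 of the 4 members with 100 reads, lay 2-fold or more above the untreated library, and none lay below it by that much. All 4 passed the minimum only through the doxycycline EXOSC10 library, in which they were high, so passing and having a high ratio are not independent, and the 2 of 4 is a description. Over all 6580 genes with 100 reads, 6.06% were 2-fold higher and 3.98% lower. Among the 3916 genes with 100 to 300 reads, the range in which the 4 members lay and which was chosen after the data were seen, 9.68% were 2-fold higher and 4.9% lower. The 5 ratios had a median of 0.73, against -0.04 over all genes tested. The intervals of 4 of the 5 genes lay above 0, and so did those of 22.2% of the genes tested. With total counts in place of TMM, which moves the ratios by 1.01, MDM2 (1.73) and RRM2B (1.71) were past 2-fold too, as were 47.8% of all genes tested. MDM2 lay just inside the minimum with 105 reads in the pair and CDKN1A outside it with 66.8.

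**Figure D2:**
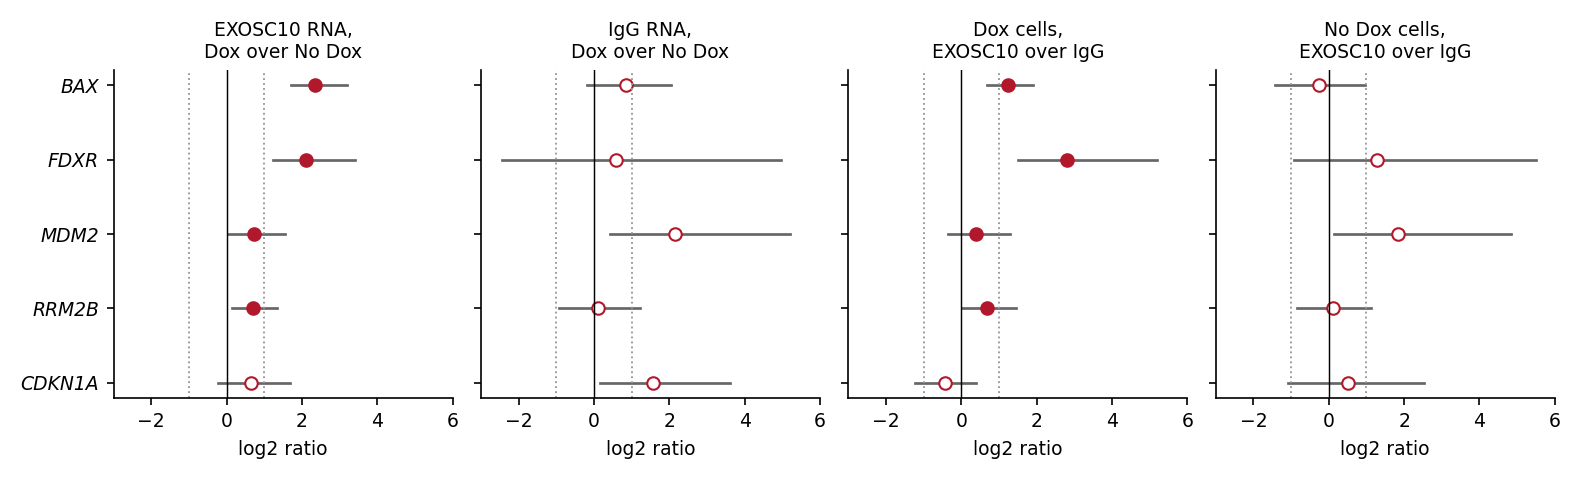
Log2 ratios of the 5 genes in the 4 comparisons, with 95% intervals for counting error only. Filled points had at least 100 reads in the pair, open points fewer, and dotted lines mark 2-fold. BAX and FDXR lay past 2-fold in EXOSC10 RNA with doxycycline and in doxycycline cells over IgG.

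**Figure D3:**
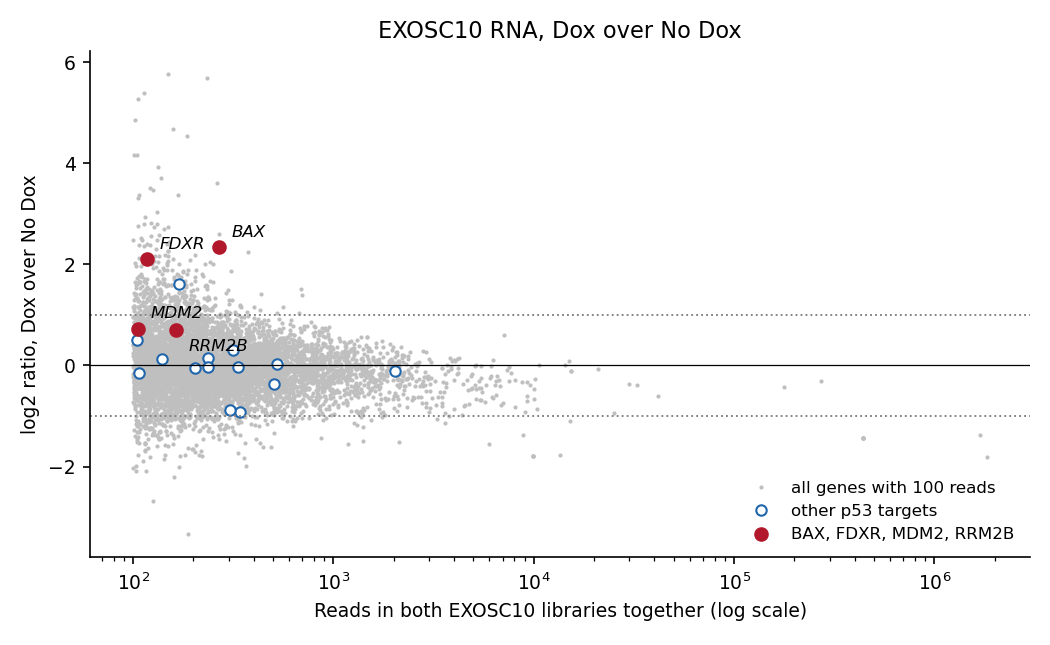
Log2 ratio of doxycycline over untreated EXOSC10 RNA against the reads of both libraries together (log axis), for the 6580 genes with at least 100 reads. Filled points are BAX (2.34), FDXR (2.10), MDM2 (0.73) and RRM2B (0.70), open circles are 14 other p53 targets, and dotted lines mark 2-fold.

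With control IgG, doxycycline over untreated, no member reached 100 reads in the pair, and their ratios are given as values only. MDM2 was at 2.16 (0.43 to 5.20), CDKN1A at 1.58 (0.15 to 3.61), BAX at 0.85 (-0.18 to 2.05), FDXR at 0.59 (-2.44 to 4.96) and RRM2B at 0.12 (-0.92 to 1.21). The order differed from that in EXOSC10 RNA: MDM2 and CDKN1A, not BAX and FDXR, had the highest ratios, from 18.4 and 22.7 reads. Over all genes with 100 reads in this pair, 3.11% were 2-fold higher and 3.44% lower, and 3.4% and 3.97% of those with 100 to 300 reads.

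EXOSC10 over IgG in doxycycline-treated cells placed FDXR highest, at 2.80 (1.51 to 5.19), followed by BAX at 1.24 (0.68 to 1.90). RRM2B was at 0.69 (0.02 to 1.46), MDM2 at 0.40 (-0.36 to 1.29) and CDKN1A at -0.43 (-1.24 to 0.40). Thus FDXR and BAX, 2 of 4 members with 100 reads, lay 2-fold or more above IgG, where 14% of 6269 genes were higher and 26.6% lower, and 20.5% and 16.6% of those with 100 to 300 reads. Here too the 4 members passed the minimum only through the doxycycline EXOSC10 library, which both comparisons share. With the total of reads outside ribosomal RNA genes, 4 members were past 2-fold, as were 51.9% of all genes tested, and CDKN1A was at 0.57. With the entry of the most reads only, no member was counted, and BAX was at 0.63.

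In untreated cells, EXOSC10 over IgG, no member had 100 reads. MDM2 was at 1.83 (0.13 to 4.84), FDXR at 1.29 (-0.93 to 5.50), CDKN1A at 0.52 (-1.08 to 2.54), RRM2B at 0.11 (-0.84 to 1.12) and BAX at -0.25 (-1.42 to 0.97). The interval lay above 0 for MDM2, 1 gene of the 5, and for 21.9% of all genes tested. The genes tested had at least 100 reads in the pair, unlike the members. Of the 3609 genes tested here, 5.54% were 2-fold higher and 36% lower, and 7.75% and 25.3% of those with 100 to 300 reads.

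The change of enrichment sets EXOSC10 over IgG with doxycycline against the same ratio untreated. It was 1.49 for BAX (0.26 to 2.72), 1.50 for FDXR (-1.44 to 4.45) and 0.58 for RRM2B (-0.55 to 1.71), and it was -0.95 for CDKN1A (-2.69 to 0.79) and -1.43 for MDM2 (-3.52 to 0.66). The interval lay above 0 for BAX, 1 gene of the 5, and for 17.4% of all genes tested. The genes tested had at least 100 reads in each antibody pair, unlike the members. With the entry of the most reads alone the BAX value was -3.22, and that entry had next to no reads in the untreated IgG library. None had 100 reads in the IgG pair, so none could be counted. Of the 2943 genes that could, 4.72% were 2-fold higher and 11% lower.

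Additive tests over all 4 libraries by limma, with the other factor standing in for replication and 1 residual degree of freedom, included 9559 genes and 4 members. FDXR was not tested, since it had 10 reads in 1 library only. Doxycycline over untreated gave BAX 1.60 ± 0.55 (SE), with an unadjusted p of 0.019 and an adjusted p of 0.854. MDM2 was at 1.44 ± 0.73, CDKN1A at 1.11 ± 0.71 and RRM2B at 0.41 ± 0.50, with adjusted p from 0.854 to 0.909 in limma. The test called 0 of the 9559 genes (0% in each direction), and 423 had an unadjusted p under 0.05. For EXOSC10 over IgG, limma gave adjusted p from 0.319 (MDM2, 1.12 ± 0.73) to 0.973 (CDKN1A, 0.04 ± 0.71), where 1.23% of genes were called higher and 15.6% lower. None of the 4 members passed either test.

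The table lists several entries per symbol, with no name that tells them apart, numbered here in table order, and a gene's reads moved between its entries from library to library. For CDKN1A, 100% of the reads lay on entry 3 in the doxycycline EXOSC10 library and 100% on entry 1 in the untreated EXOSC10 library. With doxycycline and IgG, 90.2% lay on entry 2. For RRM2B, entry 1 held 83.6% of the reads in the doxycycline EXOSC10 library and 13.4% in the untreated one, and 83.6% in both IgG libraries. For MDM2, entry 3 held 41.1% and 100% of the reads in the doxycycline and untreated EXOSC10 libraries. BAX had 51.9% on entry 4 and 43% on entry 2 in the doxycycline EXOSC10 library, against 75.5% on entry 4 and 24.5% on entry 1 in the untreated one. The ratio of a single entry is therefore not that of the gene. With the entry of the most reads in place of the sum, BAX was at 1.68 in EXOSC10 RNA, doxycycline over untreated, MDM2 was at -0.60 and RRM2B at 2.97. CDKN1A was at 4.3, from 54.0 reads with doxycycline and next to none untreated, so that the pseudocount sets the value. That setting also counts 2 members as 2-fold higher, but they were BAX and RRM2B, since FDXR no longer had 100 reads, and 13% of all genes tested were 2-fold higher. Reads were whole, within 0.05 of a read, for BAX in both untreated libraries, while FDXR and RRM2B held fractions in all 4.

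**Figure D4:**
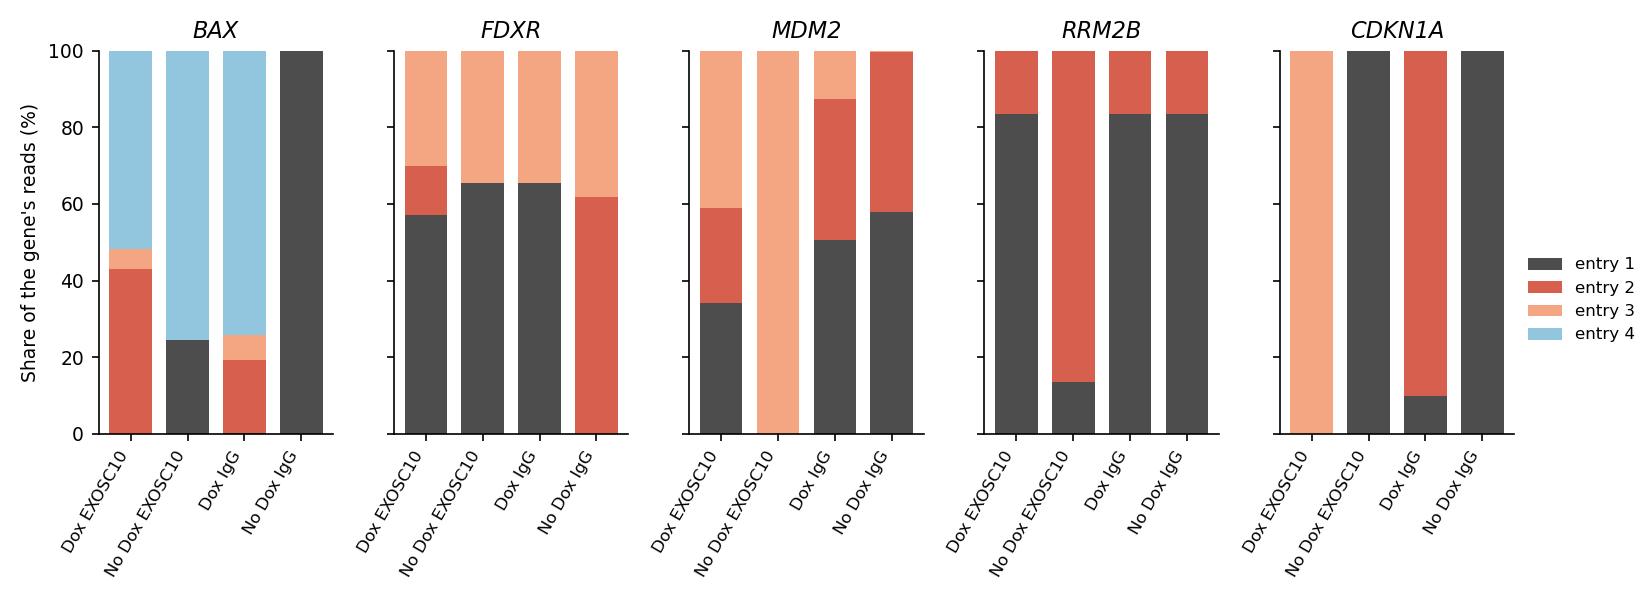
Share of each gene's reads (percent) on each of its table entries, numbered in table order, in the 4 libraries. CDKN1A lay wholly on entry 3 in the doxycycline EXOSC10 library and wholly on entry 1 in the untreated EXOSC10 library.

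Among other p53 targets, those with 100 reads had a median close to that of all genes with 100 reads. Of 38 listed, 34 had entries and 14 had 100 reads in the EXOSC10 pair. Their median ratio of doxycycline over untreated was -0.03, against -0.04 over all genes tested. Targets with entries but fewer reads outnumbered these 14 and are outside that median. Their ratios ran from -0.73 (XPC) to 2.68 (APAF1, from 14.9 and 0 reads), and most were above 0. CCNG1, which encodes cyclin G1, was the 1 of these 14 that was 2-fold higher, where 6.06% of all genes tested were. It was at 1.60 (0.95 to 2.45), with 151 and 18.2 reads in the doxycycline and untreated EXOSC10 libraries. PHLDA3, an inhibitor of AKT signalling, was at -0.93 (-1.25 to -0.61), and GADD45A, a growth arrest and DNA damage protein, at -0.88 (-1.22 to -0.55). In the list of p53 regulators, 13 genes had 100 reads, with a median of -0.10. CHEK1, a checkpoint kinase, was higher at 4.16 (2.67 to 9.92), from 99.3 and 1.12 reads in the doxycycline and untreated EXOSC10 libraries, and its reads were fractions in all 4 libraries. KAT5, an acetyltransferase that modifies p53, was 2-fold lower at -1.01 (-1.46 to -0.60), and the ribosomal protein gene RPL5, whose product binds MDM2, was at -0.82 (-0.93 to -0.71).

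The partners of the members were mixed. Their counts stand beside 6.06% of all genes tested 2-fold higher and 3.98% lower, and 9.68% and 4.9% of those with 100 to 300 reads. In the BCL2 family, to which BAX belongs, 0 of 6 genes with 100 reads were 2-fold higher and the median was -0.51. BCL2L11, the pro-apoptotic BIM gene, was the 1 lower member at -1.08 (-1.70 to -0.52). The anti-apoptotic BCL2L1 was at -0.73 (-0.97 to -0.48), and BAK1, the closest functional relative of BAX, at -0.65 (-1.15 to -0.17). Of the nucleotide supply genes around RRM2B, 1 of 7 was 2-fold higher, DUT, the dUTP pyrophosphatase, at 1.36 (0.69 to 2.21). RRM1, the large subunit of ribonucleotide reductase, was at 0.37, SAMHD1, which degrades dNTPs, at -0.31, and the list's median was 0.11. In the ferredoxin chain that FDXR feeds, 1 of 3 genes was 2-fold higher, the iron-sulphur scaffold ISCU at 1.07 (0.53 to 1.71), while the cysteine desulphurase NFS1 was at 0.11, its partner LYRM4 at -0.53 and the median at 0.11. Of the cyclins, kinases and inhibitors around CDKN1A, 1 of 13 was 2-fold higher, CCNA2 (cyclin A2) at 1.18 (0.44 to 2.13). CDK2, a kinase that p21 inhibits, was at -0.75, the inhibitor gene CDKN2C at -0.65, and the median was 0.02.

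**Figure D5:**
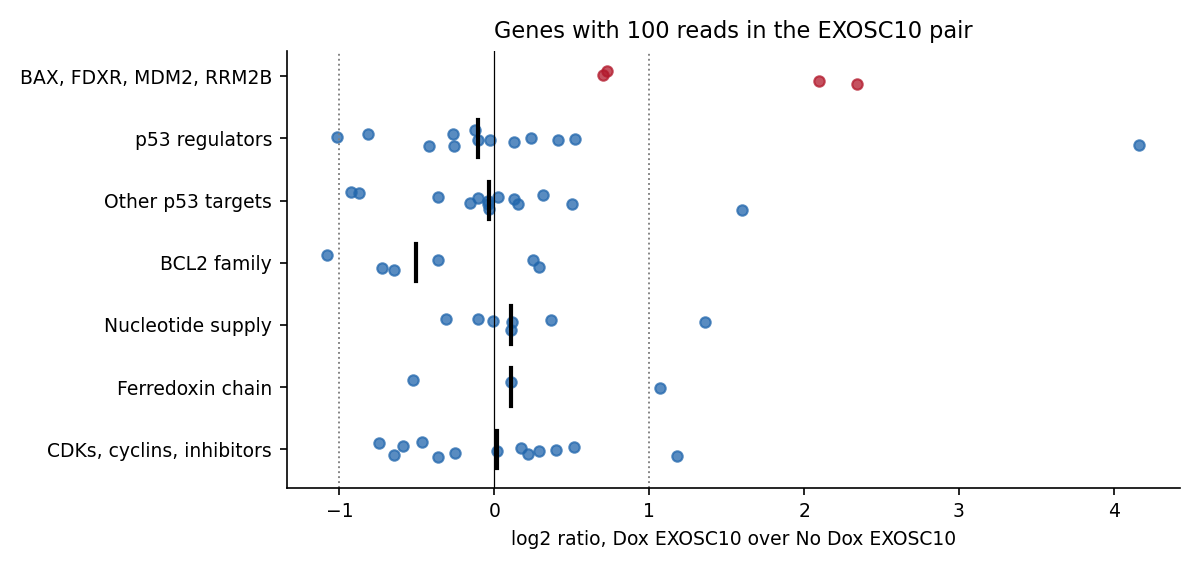
Log2 ratio of doxycycline over untreated EXOSC10 RNA for genes with at least 100 reads, by list. Black bars are list medians, which ran from -0.51 (BCL2 family) to 0.11, and dotted lines mark 2-fold. BAX and FDXR lay to the right of every other p53 target shown. Targets with fewer than 100 reads are not shown, and their ratios reached 2.68.

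The genes most like each member over the 4 libraries were found by the distance between scaled log2 profiles, each centred on its own mean. SNRNP48 (distance 0.17) and BLOC1S6 (0.29) were nearest to BAX, and ARIH2 (0.25) and LOC101930085 (0.33) to FDXR. DPH3 (0.13) and ANKLE2 (0.22) were nearest to MDM2, TRMT10C (0.06) and SIPA1L3 (0.06) to RRM2B, and RIPK1 (0.12) and HARS1 (0.12) to CDKN1A. Within a distance of 0.5, FDXR had 2 genes, BAX 7, MDM2 31, CDKN1A 78 and RRM2B 697 among about the same number of candidates, 7506 or 7507. RRM2B thus had many genes within that distance and FDXR few. FDXR had only 1.52 to 8.83 reads per library outside doxycycline EXOSC10. The counting interval of its IgG ratio, doxycycline over untreated, ran from -2.44 to 4.96, and that of RRM2B from -0.92 to 1.21. Both are wider than the distance of 0.5. These reads therefore cannot decide whether few genes share the profile of FDXR, and the counts are a description.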

How the data were processed

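RNA recovered with an EXOSC10 antibody or IgG was sequenced in 4 libraries, 1 per group, with SMARTer mRNA-seq chemistry per the labels' protocols. The authors deposited a table in CPM, read as such from its values: each column summed to 1000000 once 0.0001, present in every value, was subtracted. STAR, Partek and build hg38 are named per the submitters' processing notes. Nothing used here states the strand setting or how reads were assigned to entries. Entries of a symbol were summed. Reads were estimated from the CPM worth of 1 read, 0.132 to 0.269, on which the low sums lay. Between 67.6% and 74.0% of genes were within 0.05 of a whole read, so no count model was used.

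Libraries were scaled by TMM, the trimmed mean of M values (30% of ratios and 5% of levels trimmed), with factors from 0.452 to 2.50. Ratios are on the log2(scaled CPM + 0.2) scale, where 0.2 CPM is the pseudocount, which understates low genes. Their 95% intervals used the Clopper-Pearson formula on estimated reads, without the pseudocount. They are not exact where reads are fractions. For the change of enrichment, intervals came from summed reciprocal reads. Intervals cover counting error only. A gene was counted at 2-fold with 100 reads in the pair. The additive tests used limma 3.58.1 on genes with 10 reads in 2 libraries, with the variance trended on level and p-values adjusted by Benjamini-Hochberg, called at 0.05. Scripts were tested on simulated data (Python 3.11.15, R 4.3.3). All 5 members matched the RefSeq gene table of GRCh38.p14. Members, lists and tests were chosen with earlier results of these data known. The named genes were the members, up to 3 genes per list with the largest EXOSC10 ratio, and the 2 nearest profiles per member. CDKN2A and the markers were added for the checks they give, and 1 listed gene is not reported here. Alternatives covered scaling, pseudocount, read minimum, choice of entry and overlapping genes.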

Additional observations from a re-analysis of the deposited data

How the results depend on the processing

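Depth limits these values: the members had 1.52 to 26.1 reads in the IgG libraries and 8.83 to 30.5 in the untreated EXOSC10 library. No paired analysis was possible because each group has 1 library and the labels give no replicate numbers, which also leaves no replicate to omit. The additive fits carry the other factor as a covariate. Under 10 alternatives the count of members at least 2-fold higher in EXOSC10 RNA, 2, became 4 with total counts, where 47.8% of all genes tested were higher. In doxycycline cells over IgG it was 4 with total counts and 4 with the total of reads outside ribosomal RNA genes. There 80.9% and 51.9% of all genes tested were higher. It was 0 with the entry of the most reads only, where 18.8% of all genes tested were higher. With a minimum of 20 reads, 1 member was 2-fold higher in IgG RNA, 1 in untreated cells over IgG and 1 in the change of enrichment, where 8.63%, 17.5% and 12.1% of all genes tested were higher. With no minimum these counts were 2, 2 and 2 (16.8%, 22.9% and 26.8% of all genes). In the change of enrichment 1 member was then lower, as were 18.7% of all genes. The main counts were 0 for each of these. Low read minimums admit the members by construction. With the total of reads outside ribosomal RNA genes, the antibody test called 1 member, MDM2 (2.05, limma adjusted p = 0.046). In that setting 43% of all genes tested were called. The antibody test called 0 members otherwise. Over all genes that test called 1612, but 531 with total counts, 4108 with the total outside ribosomal RNA genes, 765 with the entry of the most reads and 0 without the trend (2963 had an unadjusted p under 0.05). The doxycycline test called 10 genes with total counts and 4 with no filter, none of them a member. The all-gene split of higher and lower in EXOSC10 RNA, 399 and 262, was 3148 and 8 with total counts, 314 and 423 with median-of-ratios factors, and 1874 and 866 with a minimum of 20 reads. In doxycycline cells over IgG, 880 and 1670 became 5071 and 34 with total counts, and 3251 and 661 with the total outside ribosomal RNA genes. BAX and FDXR stayed above 0 in EXOSC10 RNA and in doxycycline cells over IgG under these 10 alternatives. Their change of enrichment, not counted for low reads, was -3.22 and -0.33 with the entry of the most reads. Summing overlapping genes changed no value, since none of them had an entry.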
